A study of Mus musculus with 6 samples.

Results

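The regions described here are stretches of open chromatin in cultured mouse adipocytes whose strongest point lies next to a full cAMP response element, the 8-bp palindrome TGACGTCA. Open chromatin was profiled by ATAC-seq, in which a transposase cuts accessible DNA, in 6 libraries. The called intervals of the 6 libraries were merged where they overlapped by at least 1 bp, which gave 194610 regions. A region was taken when an exact match to the element lay wholly within 100 bp of its strongest summit, the summit with the highest -log10 q of all 6 libraries. This rule chose 1276 of the 194610 regions. Of these, 455 had their summit within 1 kb of the start site of a protein-coding transcript and are called promoter regions, and the other 821 are called distal.

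All cells were wild type C57BL/6J stromal vascular cells of male mice aged 3 to 4 weeks, differentiated for 7 days, with 2 libraries per condition. The beige and white libraries came from inguinal fat and the brown libraries from brown fat. For the first 48 h every medium held 0.5 mM isobutyl methylxanthine (IBMX) and, per the labels, 5 μg/ml insulin. The beige and brown media also held 5 μM dexamethasone, 1 nM T3 and 1 μM rosiglitazone, whereas the white medium held 1 μM dexamethasone and neither T3 nor rosiglitazone. IBMX was then withdrawn in all conditions, so no pair of conditions differed in it, and no library without it was analysed here. Per the labels, beige and white thus differed in 3 components of the medium; the paper's methods give other insulin doses, which also differ between beige and white. Brown differed from beige in the depot, so depot and medium cannot be told apart between brown and white. The paper does not describe the brown libraries, so any difference in their handling cannot be told apart from depot either.

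The cAMP response element is the binding site of the basic leucine zipper proteins CREB1, CREM and ATF1. Hormones that act through Gs-coupled receptors, such as the β-adrenergic signal to fat, raise cAMP and activate protein kinase A, which phosphorylates these factors and lets them recruit the coactivators CBP and p300. IBMX blocks the phosphodiesterases that break cAMP down and is used in adipogenic mixtures for that reason. The element holds a CG dinucleotide, whose methylation lowers binding, and it is best known from promoters, where it sits close to the start site.

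The sequences below show the element, in capitals, in its surroundings at some of the promoters and distal regions that carry the results. They are given 5′ to 3′ on the forward strand of mm10, as read from the reference genome, with 30 bases to each side, or 11 where an exon lies within reach. The first set belongs to genes of cAMP signalling or genes it is known to induce.
Gem, chr4:11704345-11704412: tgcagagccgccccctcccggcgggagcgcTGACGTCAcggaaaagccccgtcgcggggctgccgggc
Ier2, chr8:84662860-84662927: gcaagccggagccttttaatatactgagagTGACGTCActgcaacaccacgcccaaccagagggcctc
Dusp1, chr17:26508578-26508645: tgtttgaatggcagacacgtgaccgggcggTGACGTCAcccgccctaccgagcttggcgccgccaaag
Sik1, chr17:31856006-31856073: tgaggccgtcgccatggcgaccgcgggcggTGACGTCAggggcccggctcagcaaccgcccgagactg
Jund, chr8:70698705-70698772: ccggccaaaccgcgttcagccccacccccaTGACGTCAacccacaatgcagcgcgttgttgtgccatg
Pde7a, chr3:19311383-19311450: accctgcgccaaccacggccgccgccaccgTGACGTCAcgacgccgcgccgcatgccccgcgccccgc
Vgf, chr5:137030175-137030242: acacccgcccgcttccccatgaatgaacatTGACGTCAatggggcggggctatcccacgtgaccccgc
Prkar1a, chr11:109650889-109650918: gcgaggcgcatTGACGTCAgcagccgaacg
Creb5, chr6:53287247-53287276: ggaatcccacgTGACGTCAccgggggggtg
The next set is distal. The first 4 were open in all 6 libraries, and the last 3 were open in both beige and both brown libraries and in neither white library.
Id4, upstream, chr13:48227864-48227931: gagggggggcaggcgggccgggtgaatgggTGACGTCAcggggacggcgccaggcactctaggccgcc
Ppargc1a, far upstream, chr5:51868393-51868460: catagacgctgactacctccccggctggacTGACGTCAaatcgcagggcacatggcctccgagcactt
Ppargc1a, upstream, chr5:51710885-51710952: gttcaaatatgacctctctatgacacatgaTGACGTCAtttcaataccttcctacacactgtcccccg
Pde4d, intron, chr13:109536848-109536915: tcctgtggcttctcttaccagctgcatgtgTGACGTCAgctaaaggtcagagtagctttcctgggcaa
Ppm1b, upstream, chr17:84878000-84878067: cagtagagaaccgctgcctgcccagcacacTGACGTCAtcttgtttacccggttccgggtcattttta
Ppp2r3a, upstream, chr9:101411015-101411082: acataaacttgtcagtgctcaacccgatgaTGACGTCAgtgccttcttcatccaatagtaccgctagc
Ebf2, upstream, chr14:67170415-67170444: gctggagccagTGACGTCActgtgggtaag

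The lists held 109143 to 127490 intervals per library and no read counts. The paper's reporting summary gives read numbers for the beige and white libraries, with a lower mapped share in beige than in white. It gives none for brown, and the part of depth and mapping in the results was not tested. Values of -log10 q chose the strongest summit of each region and the regions named per pattern. Otherwise they are used only to rank intervals within a library. Of 10 adipocyte genes, 9 or 10 had an open promoter in each library, and of 6 brown depot genes 4 or 5 did in beige, 4 in white and 6 and 5 in brown. Among the latter, the promoters of Lhx8, Ebf2 and Meox2 were open in all 6 libraries, that of Eva1a in all but Brown 2, that of Zic1 in Beige 2 and both brown libraries, and that of Ucp1, the uncoupling protein of thermogenic fat, in the brown libraries. Promoters were open in each library at 8 or 9 of 10 progenitor genes, 3 or 4 of 10 macrophage genes and 5 to 7 of 10 endothelial genes, and the part of such cells in the results was not tested. White 2 stood apart in the measures of the element given below, and values that rest on it are repeated without it. Conditions were compared by values only, because with 2 libraries each the smallest two-sided p an exact permutation test can give is 0.333. The 95% Clopper-Pearson intervals cover counting error only.

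The element was far more frequent at open promoters than at open distal regions. It was present in 2.01% of the 22584 promoter regions and in 0.477% of the 172026 distal regions. The 2 classes lay closer at like CpG content. With at most 2 CpG in the 201-bp window the shares were 0.224% and 0.220%, and with 3 to 7 CpG 0.883% and 0.727%. With 8 to 15 CpG they were 1.98% and 1.24%, and with at least 16 CpG 3.04% and 1.37%. The part of CpG content in the gap was not tested. As a reference, 5 other palindromes with the same letters and a central CG (TAGCGCTA, GTACGTAC, GATCGATC, ATGCGCAT and AGTCGACT) were searched in the same windows. Each of them was found in 0.0266% to 0.248% of promoter regions and in 0.0262% to 0.0628% of distal regions. The highest of these promoter values was that of ATGCGCAT, and the element exceeded it by several fold.

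The matches clustered at the summit. Over all promoter regions, the element occurred 4.14 times per 1000 regions and 20 bp within 20 bp of the summit, and 0.385 times at 300 to 500 bp, a ratio of 10.7. Over all distal regions the same densities were 0.808 and 0.144, a ratio of 5.62. For the mean of the 5 other palindromes the ratio was 1.76 at promoters and 1.02 at distal regions.

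**Figure D1:**
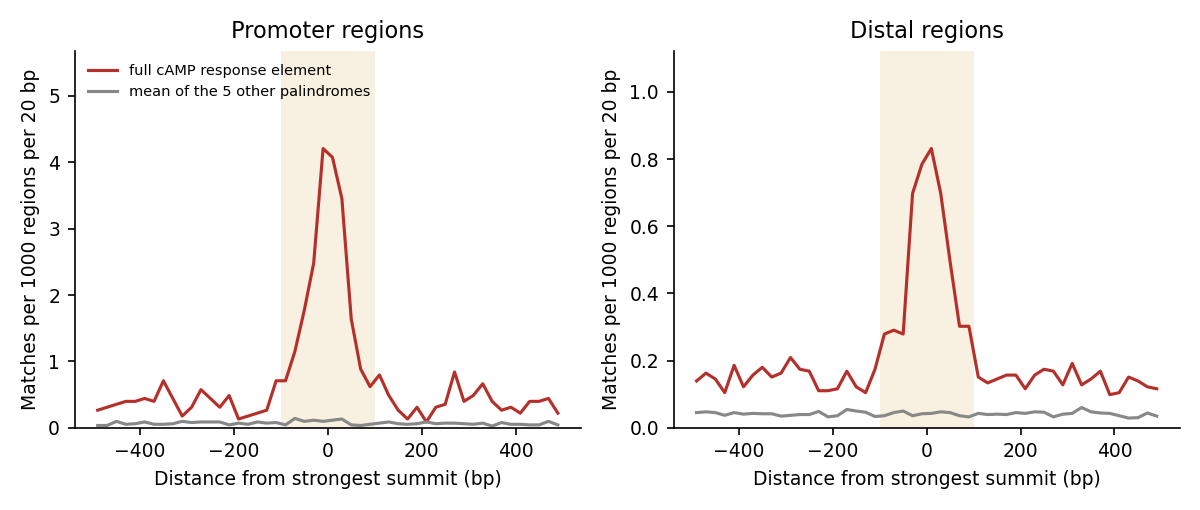
Matches per 1000 regions in bins of 20 bp against the distance from the strongest summit in bp, for all promoter regions (left) and all distal regions (right, on a smaller scale); red is the full element, grey the mean of the 5 other palindromes, and the shaded band is the window of the rule. The element peaks at the summit in both classes, while the grey line stays low across the window.

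Seen from the genome, the element was open most often beside a start site. The mm10 chromosomes 1 to 19, X and Y held 14499 matches, and 1826 of them, or 12.6%, lay inside an open region, against 2.25% to 5.33% of the matches of the other palindromes. Within 1 kb of a start site, 715 of 962 matches (74.3%) were open, against 28.0% to 46.9% for the other palindromes. Beyond 1 kb the value was 8.21%, against 1.74% to 4.02%. Within 100 bp of a start site 84.7% of the elements were open (439 of 518; interval 81.4% to 87.7%). At 500 to 1000 bp this was 44.8%, at 1 to 5 kb 12.1%, and beyond 50 kb 6.45%. The largest step was between the bin that ends at 1 kb and the next one.

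**Figure D2:**
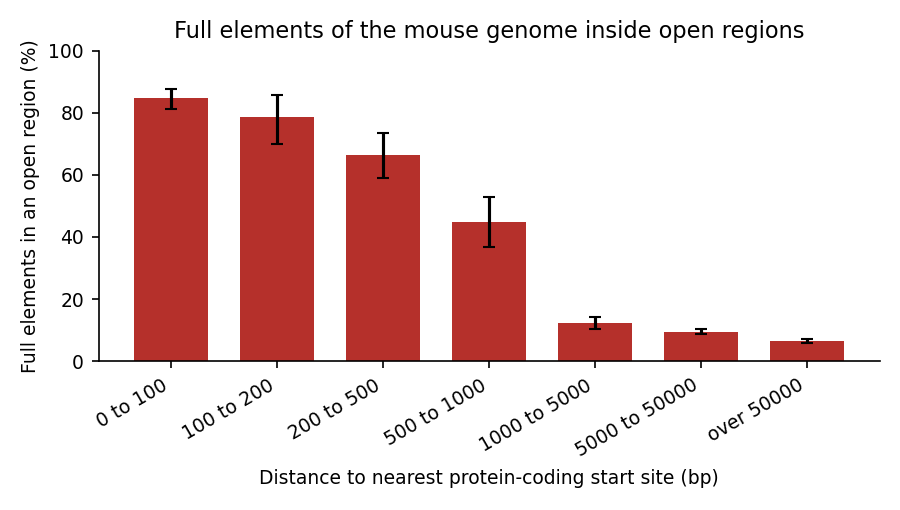
Percent of all full elements of the genome that lie in an open region of any library, by distance in bp to the nearest protein-coding start site; error bars are 95% Clopper-Pearson intervals. The bars fall from 84.7% within 100 bp of a start site to 6.45% beyond 50 kb.

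Elements inside and outside open chromatin differed in their surroundings. Of the elements in open regions 3.45% touched repeat bases, against 28.4% of those outside, and the median GC content of the surrounding 200 bp was 54.0% and 47.5%. Among the 10835 elements outside repeats, 16.3% were open. The 2 bases beside the element also differed between classes. The form GTGACGTCAC, a 10-bp palindrome, made up 24.2% of the promoter regions with an element (110 of 455) and 9.01% of the distal ones (74 of 821). The form ATGACGTCAT, also a palindrome, made up 1.32% of the promoter regions (6) and 11.1% of the distal ones (91). In the genome the 2 forms had 994 and 1220 matches, of which 27.6% and 12.0% were open. GTGACGTCAA was the commonest form in the genome with 3185 matches, of which 77.1% touched repeats and 3.2% were open. Outside repeats 13.2% of this form were open.

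At promoters the element sat just upstream of the start site. The median position of the element was 26 bp upstream, with quartiles of -68 and -1 bp. It lay upstream at 342 of 455 promoter regions (75.2%), within the first 100 bp upstream at 271 (59.6%), and within 200 bp on either side at 391 (85.9%). The median distance from element to summit was 25.5 bp at promoters and 29.5 bp at distal regions, inside a window whose reach of 100 bp the rule had set. An annotated exon covered the element at 172 promoter regions (37.8%), an intron at 66 and the space between genes at 217. Of the distal elements, 350 (42.6%) were intronic, 68 (8.28%) exonic and 403 (49.1%) between genes. The median distance of the distal summits to a start site was 36138 bp, against 37948 bp for all distal regions. At 42 promoter regions (9.23%) start sites of both strands lay within 1 kb of the summit, against 6.94% of all promoter regions. As a second reading, the promoter windows of RefSeq on GRCm38.p6, 250 bases before to 50 after each start, held the element in 588 of 32851 cases (1.79%), whether open or not.

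**Figure D3:**
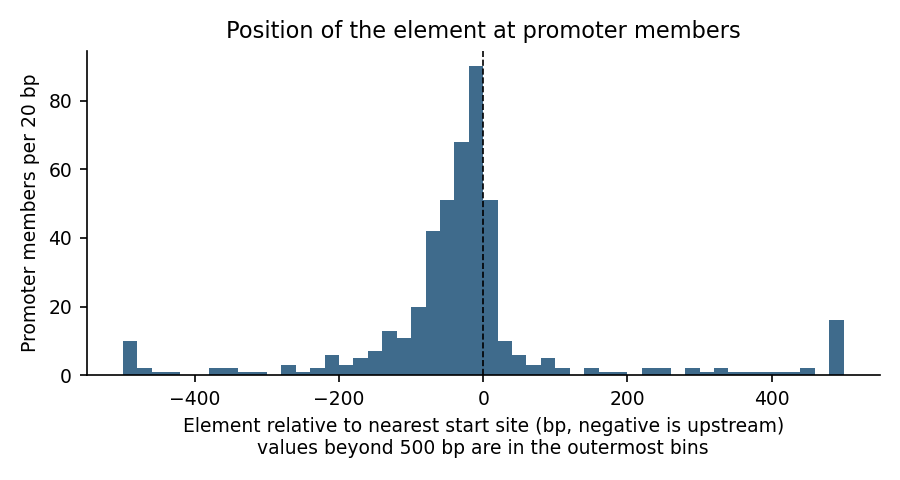
Number of promoter regions with the element, in bins of 20 bp, against the position of the element relative to the nearest start site in bp (negative is upstream; the outermost bins gather all values beyond 500 bp). The tallest bin is the one just upstream of the start site, and 75.2% of the elements lie upstream.

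More than one element was rare. Of the promoter regions 14 held at least 2 elements in the window, with a median spacing of 46 bp (11 to 96), and 13 of these were open in all 6 libraries. Of the distal regions 12 did, with a median spacing of 31 bp (15 to 174), and 4 of these were open in all 6. The largest number was 4, in a distal region nearest Atrnl1 that was called in White 2 alone with a -log10 q of 2.0. The regions with 3 elements, nearest Tns1 and Prdm4, were each called in a single library too, Brown 2 and White 1. At Prdm4 the elements are 30 bp apart, in tandem copies of a short sequence, as the following stretch shows.
Prdm4, chr10:85897505-85897572: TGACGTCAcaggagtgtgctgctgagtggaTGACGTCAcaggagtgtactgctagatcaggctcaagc

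Some other sequence features also set these regions apart from open regions at large, as descriptions only. The promoter regions with an element had a median GC content of 64.2%, 19 CpG in the 201-bp window and a width of 959 bp, against 61.7%, 13 and 656 bp for all promoter regions. The distal ones had 50.7%, 4 CpG and 316 bp, against 49.3%, 2 and 245 bp. Each element itself adds 1 CpG to this count. Other motifs were searched on both strands of the same windows. The AP-1 site TGANTCA, bound by FOS and JUN proteins and no part of the element, was found in 2.64% of promoter regions with an element and in 6.51% of all promoter regions, and in 16.7% and 23.2% of the distal ones. The ETS site CCGGAAG was found in 15.2% of promoter regions with an element and in 9.77% of all, the SP site GGGCGG in 53.6% and 45.6%, and the NFY site CCAAT in 30.3% and 25.7%. Of the distal regions with an element 5 held the CTCF motif (0.609%, against 1.42% of all), and of the promoter regions none did (0 of 455, against 0.505%).

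Promoters with the element were open in nearly every library. Of the 455, 410 were open in all 6 libraries, which is 90.1% (87.0% to 92.7%), against a background of 63.1% of all promoter regions. With promoters set at 500 bp from a start site, the background was higher, at 73.2%. The share of regions with an element stayed within the interval given. A single library alone opened 13 of them (2.86%), against 16.7% of all promoter regions. By library, 94.5% and 96.3% were open in beige, 94.1% and 92.5% in white and 95.2% and 94.5% in brown. The same values over all promoter regions were 77.7% and 82.3% in beige, 75.4% and 80.9% in white, and 74.3% and 72.5% in brown. Without White 2, 91.0% of the promoter regions with an element were open in all the other 5 libraries, against 65.9% of all.

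Promoter openness also moves with CpG content, so the regions were set beside others of like content. Among promoter windows with at least 16 CpG, 96.2% of the 290 with an element were open in all 6 libraries, against 87.3% of all. With 8 to 15 CpG the values were 86.2% of 116 and 65.7%, and with 3 to 7 CpG 70.5% of 44 and 31.4%. Of the 5 with fewer, none was open in all 6. The ranks within a library were not matched for CpG content. Intervals at promoters with an element had median percentiles of -log10 q of 91.7 to 95 by library, against 82.4 to 88.0 for all promoter regions.

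Distal regions with the element were open in all 6 libraries less often than the promoters but more often than other distal regions. This held for 319 of 821, or 38.9% (35.5% to 42.3%), against a background of 25.8%. A single library alone opened 223 (27.2%), against 39.9% of all distal regions. By library, 63.8% and 70.8% were open in beige, 60.5% and 54.7% in white, and 67.0% and 60.5% in brown. Over all distal regions the values were 51.4% and 56.9% in beige, 52.3% and 49.9% in white, and 49.7% and 47.8% in brown. The excess over the background was thus 12.4 and 13.8 percentage points in beige, 8.23 and 4.79 in white, and 17.3 and 12.8 in brown. White 2 had the smallest excess and Brown 1 the largest, and no white value reached the lowest beige or brown value. The element was sought at the summit of highest -log10 q of all 6 libraries. The part of that choice in these excesses was not tested. Without White 2, 43.3% of the distal regions with an element were open in all the other 5 libraries, against 29.2% of all. By CpG content, 36.0% of the distal regions with 3 to 7 CpG and an element were open in all 6, against 29.1% of all with that content, and 57.9% against 41.8% with 8 to 15 CpG.

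**Figure D4:**
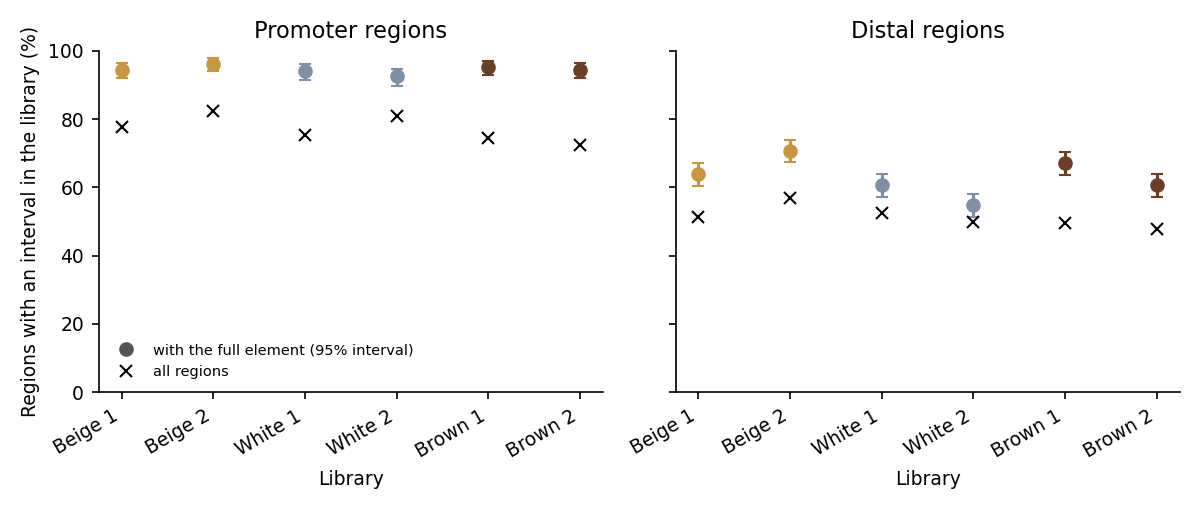
Percent of promoter regions (left) and distal regions (right) that have an interval in each library; dots with 95% Clopper-Pearson intervals are the regions with a full element, crosses are all regions of the class. Every dot lies above its cross, and the gap at distal regions is smallest in White 2, at 4.79 percentage points.

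White was also lowest without any merging, in the intervals of each library at their own strongest summits. Brown was highest here, whereas the excesses of beige and brown at merged distal regions overlapped. The element was found in 0.843% and 0.852% of the beige, 0.786% and 0.688% of the white, and 0.913% and 0.911% of the brown intervals. The means were 0.848% ± 0.0060 (SD, n = 2) in beige, 0.737% ± 0.070 (SD, n = 2) in white and 0.912% ± 0.0019 (SD, n = 2) in brown. Over all intervals the 3 conditions did not overlap, but White 1 lay closer to beige than to White 2. At distal intervals the means were 0.581% ± 0.012, 0.488% ± 0.051 and 0.625% ± 0.022 (SD, n = 2 each), and at promoter intervals 2.06% ± 0.041, 1.77% ± 0.20 and 2.14% ± 0.078. At promoter intervals beige and brown overlapped, with 2.093% in Beige 2 and 2.087% in Brown 1. At the regions chosen by the rule, White 2 also had its summits farther from the element. At the promoters open in all 6 libraries, the median distance from its own summit to the element was 49.5 bp in White 2 and 28.0 to 35.0 bp in the other 5. At such distal regions it was 44.5 bp and 31.5 to 36.5 bp. The rule placed the element within 100 bp of the summit of highest -log10 q of all 6 libraries. A library that seldom supplied that summit could lie farther from the element by this choice, which was not tested. The part of the offset of White 2 in its low share was not tested beyond the wider windows given in the closing section.

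A condition was called open where both of its libraries had an interval and closed where neither had one, and a region was called mixed where the libraries of any condition differed. Only 8 promoter regions with an element (1.76%) followed 1 or 2 conditions in this way, against 3.53% of all promoter regions, and 37 (8.13%) were mixed, against 33.3%. Beige alone opened a promoter region of Tctex1d1, with -log10 q of 10.6 and 12.3, and one of Gm43302 and Gbp6, with 10.5 and 4.6. Brown alone opened one of Slc45a1, a sugar transporter, with 4.8 and 7.7. Beige and brown opened regions of Traf4, a signalling adaptor, and Gpr6, an orphan receptor that raises cAMP. Beige and white opened regions of Snap25, a SNARE protein of exocytosis, and Aff4, a subunit of the super elongation complex. White and brown opened the shared promoter region of Peg3 and Usp29, imprinted genes. The summits at Traf4, Gm43302 and Aff4 lay 391, 647 and 970 bp downstream of the start site. Other regions at the start sites of these genes were not read here, so their promoters as a whole are not shown to follow these patterns. None of the 8 had a -log10 q above 15.9 in any library, whereas the 10 promoters of highest rank given below all had at least 90.0.

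Of the distal regions with an element, 49 (5.97%) followed 1 or 2 conditions, against 7.12% of all distal regions, and 453 (55.2%) were mixed, against 67.0%. Beige alone opened 9 (1.10%, against 2.06%), white alone 6 (0.731%, against 1.3%) and brown alone 7 (0.853%, against 0.953%). Beige and white opened 6 (0.731%, against 1.2%), and white and brown 1 (0.122%, against 0.256%), nearest Ankrd50. Beige and brown opened 20 (2.44%; 1.49% to 3.74%), against 1.34% of all distal regions. This was the one distal pattern of the 6 in which the share of regions with an element was above its background, and it rests on few regions. With either white library left out, a condition of 1 library is easier to call closed, and the members open in beige and brown and not in white, promoters included, went from 22 to 41 without White 2 and to 55 without White 1. They were 36 without Beige 1 and 35 without Brown 2, where the same applies to those conditions. With all libraries they made up 1.72% of the regions with an element, against 1.25% of all regions. Without White 2 these shares were 3.24% and 3.07%, and without Beige 2 1.73% and 1.64%, so the members then lay near the background. They were 4.46% and 3.16% without White 1, 2.88% and 1.85% without Beige 1, 2.28% and 1.77% without Brown 1, and 2.81% and 2.27% without Brown 2.

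The regions open in beige and brown and not in white lay near the following genes. Ppm1b, which encodes a protein phosphatase, had its region at -78692 bp from the start site, where negative is upstream, with -log10 q of 27.5 and 35.7 in beige and 14.7 and 21.2 in brown. The region inside Rin1, a Ras effector, lay 3175 bp downstream of the start, in an exon, with 22.0 and 42.3 in beige and 12.9 and 24.3 in brown. Both were called well above the threshold of the lists in all 4 libraries. The region at -14753 bp from Pop5, an RNase P subunit, had 15.7 and 17 in beige and 10.0 and 10.4 in brown. At Ppp2r3a, a phosphatase subunit, the region at -159307 bp had 6.7 and 5.6 in beige and 23.5 and 14.0 in brown. The intronic region of Ago2, the argonaute nuclease, had 20.5 and 11.6 in beige and 17.9 and 5.3 in brown. The others include regions nearest Etv5, an ETS factor, Lpar3, a receptor of lysophosphatidic acid, and Ebf2, a factor that marks brown and beige precursors. Ebf2 is named here after its values were seen. Its region, at -62837 bp in an exon of a long non-coding RNA, had 2.1 and 5.7 in beige and 16.8 and 12.1 in brown, and Beige 1 was near the threshold.

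Regions that followed other conditions had low values. The 5 distal regions of highest value open in beige alone lay nearest Cyp26b1, which degrades retinoic acid, Pacs1, Lpp, Agtpbp1 and Hhipl2, with -log10 q from 2.6 to 8.8. Those open in white alone lay nearest Samd5, Olfr1370, Gm12728, Sgpp1 and Med13l, with 3.8 to 8.2. Those open in brown alone lay nearest Gpld1, Sub1, Slc14a2, Slc39a11 and Atp11b, with 4.4 to 13.0. Those open in beige and white lay nearest Fez2, Prok2, Gtf3c3, Gm4312 and Gap43, with 3.4 to 13.6. Most of these genes have no known tie to fat, and a nearest gene is not shown to be the target.

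The strongest promoters were chosen by their rank, so their high ranks are a description. The 10 with the highest lowest percentile over the 6 libraries were those of Idi1, Mastl, Trim26, Dguok, Kif18a, Ubn1, Rps29, Zfp619, Lancl2 and Zfp868, and the percentile was at least 99.1 in every library. Idi1, an isomerase of cholesterol synthesis, had -log10 q of 288 and 323 in beige, 174 and 113 in white, and 352 and 313 in brown. Mastl, a mitotic kinase whose promoter faces that of Yme1l1, had 287 and 272, 162 and 106, and 334 and 266. Rps29, a ribosomal protein, had 253 and 284, 153 and 90.0, and 300 and 274. In all, 500 genes had a promoter region with an element, 3.22% of the 15504 with an open promoter. By symbol, and chosen after the members were known, these included 6 of 89 cytosolic ribosomal protein genes (Rpl4, Rpl13, Rpl18, Rpl27a, Rps9 and Rps29), 3 of 36 complex I genes (Ndufa10, Ndufa11 and Ndufb2) and 15 of 351 Zfp genes.

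The strongest distal regions open in all 6 libraries were nearest Id4, Smim15, Chd2, Sema3b, Myo1g, Pdcl3, AU041133, Gnpda1, Ppargc1a and C87436. The region at -33302 bp from Id4, an inhibitor of helix-loop-helix factors, had -log10 q of 188 and 219 in beige, 146 and 105 in white, and 223 and 186 in brown, and its percentile was at least 98.6. Of the 10, those nearest Id4, Smim15, Chd2, Sema3b, Myo1g, Pdcl3 and C87436 had a GC content of 65.2% to 71.6%, in the range of the promoter regions. Ppargc1a encodes PGC-1α, the coactivator of mitochondrial biogenesis and thermogenesis. The region nearest to it lay at -314483 bp, between genes, with 99.9 and 111 in beige, 85.4 and 60.4 in white, and 170 and 119 in brown, at a GC content of 52.7%. A second region, at -156974 bp and named after its values were seen, had 25.5 and 36.3, 34.2 and 20.2, and 35.4 and 25.9. Both were open in every library, with percentiles of at least 93.6 and 71.8.

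The genes of the cAMP pathway were then read one by one. Lists of 150 genes were used, of which 132 had an open promoter and 15 had a promoter region with an element (11.4%, against 3.22% of all genes with an open promoter). The lists were drawn up from genes known for cAMP regulation, some of them for this element, so a higher share was built in. Immediate early genes had 6 of 24, namely Dusp1, Gem, Ier2, Jund, Maff and Sik1. Genes of endocrine cells and neurons had 3 of the 12 with an open promoter, Scg2, Vgf and Sst. The CREB, ATF and CREM factors had 2 of 21, Creb5 and Crem, adenylyl cyclases and phosphodiesterases 2 of 23, Adcy8 and Pde7a, and protein kinase A with its partners 1 of 14, Prkar1a. Polb, a DNA repair polymerase, was the 1 of 10 in the cell cycle and repair list. No promoter of the coactivators (5 open), of the thermogenic cAMP targets (13 open), of the liver targets (6 open) or of the germ cell targets of CREM (4 open) had the element within 100 bp of the summit, and neither had any gene of the 5 marker lists.

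Of these regions of the 15 genes, 13 were open in all 6 libraries. Prkar1a, the regulatory subunit that holds protein kinase A inactive, had -log10 q of 117 and 137 in beige, 76.9 and 44.0 in white, and 124 and 110 in brown, with a percentile of at least 92.0 in each. Crem, on chromosome 18, had 2 elements 67 bp apart at a start site inside the gene, with 115 and 103.8, 69.1 and 90, and 106 and 86.2. Crem gives rise to the cAMP-inducible repressor ICER from an internal promoter. Sik1, a kinase that keeps the coactivators of CREB out of the nucleus, had 54.7 and 46.6, 29.3 and 18.1, and 86.8 and 72.0, and its percentiles were 90.6 and 91.0 in brown and at most 86.7 in the other libraries. Dusp1, the phosphatase that inactivates MAP kinases, had 71.8 and 85.4, 53.3 and 36.7, and 71.4 and 83.9. Pde7a, a cAMP phosphodiesterase, had 92.5 and 99.9, 56.8 and 27.1, and 118 and 119. These values are not comparable between libraries as signal, and as ranks the 5 promoters lay between percentiles 72.4 and 99.3 in every library.

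**Figure D5:**
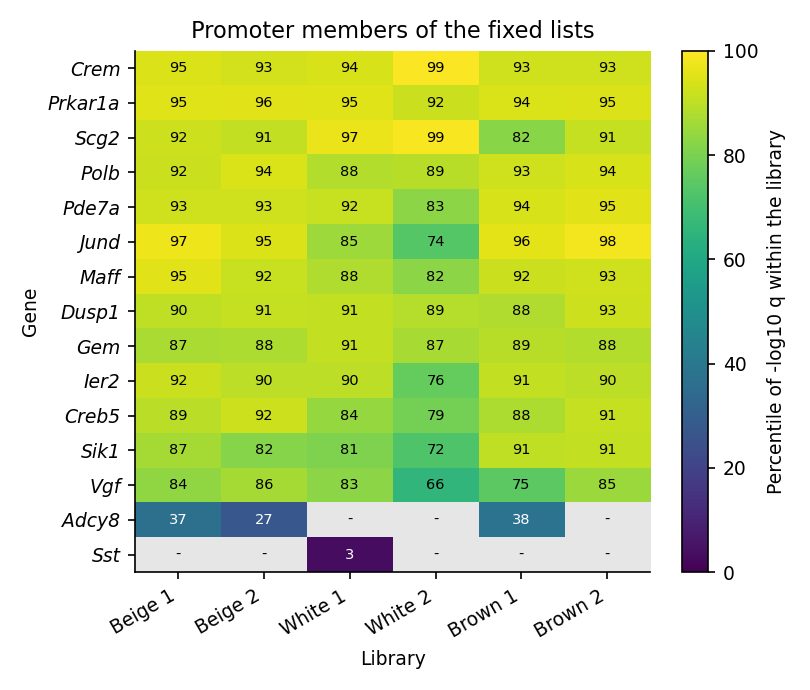
Percentile of -log10 q within each library (colour and number) for the 15 list genes with a promoter region that holds the element; rows are genes, columns libraries, and grey cells with a dash have no interval. The regions of the 13 upper genes are open in all 6 libraries, that of Adcy8 in Beige 1, Beige 2 and Brown 1, and that of Sst in White 1; other regions of the same promoters are not shown.

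Jund, an AP-1 subunit, and Ier2, an immediate early regulator, had their lowest percentiles in White 2, 73.7 and 76.4. Scg2 and Vgf encode secreted proteins of neuroendocrine cells, and both were open in all 6 libraries, Scg2 with 86.0 and 84.5, 94.7 and 84.9, and 47.5 and 72.5. By percentile, Scg2, Gem and Crem had their highest rank in a white library, and the other 10 of the 13 had it in a beige or brown one. One of the 2 promoter regions of Adcy8, an adenylyl cyclase whose promoter was open in all 6 libraries, held the element. It lay at -868 bp and had 7.8 and 6.5 in beige and 8.5 in Brown 1. Sst, which encodes somatostatin, the gene from whose promoter the element was first known, had another open promoter region besides the one with the element in its window. The latter was called in White 1 alone with a -log10 q of 2.5, and the element lay outside the interval itself. In all, 25 of the 1276 regions, 22 of them distal, had the element in the window but outside the merged interval.

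The width of the window decided several well-known cases. Of the 150 list genes 27 had a full element within 1 kb of a start site. At 14 of them it lay inside an open region and within the window, and at 9 inside an open region but farther from the strongest summit. At the other 4, Cga, Crh, Sst and Th, no interval covered it. The 9 were, by distance from the summit, Nr4a2 (102.5 bp), Ppargc1a (108.5 bp), Pde7b (115.5 bp), Ccna2 (123.5 bp), Dio2 (133.5 bp), Btg2, Areg, Chgb and Pcsk1. Just inside the limit, 90 elements lay 80 to 97 bp from the summit of an open region, and 62.2% of these regions were open in all 6 libraries. Just outside it, 75 lay in the next 17 bp, and 68.0% were open in all 6. The sequences of both cases nearest the limit are shown, a thermogenic and an immediate early gene. Dio2, Btg2 and Areg of the same lists lay farther from the summit.
Ppargc1a, promoter, chr5:51553968-51554035: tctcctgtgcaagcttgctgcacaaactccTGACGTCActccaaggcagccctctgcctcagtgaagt
Nr4a2, promoter, chr2:57115048-57115115: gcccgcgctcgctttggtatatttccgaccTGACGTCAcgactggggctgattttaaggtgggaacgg
At the Ppargc1a promoter, where the element lay 80 bp upstream of the start, -log10 q was 31.3 and 22.8 in beige, 8.3 and 8.8 in white, and 38.5 and 12.5 in brown. As percentiles, the white libraries had 45.9 and 48.6, below beige with 76.4 and 66.3 and brown with 78.5 and 58.4. At Dio2, the deiodinase that activates thyroid hormone in brown fat, the element lay 692 bp upstream, and the percentiles were 76.6 and 68.9 in beige, 59.6 and 77.2 in white, and 65.5 and 84.0 in brown, which overlap. At Nr4a2, an orphan nuclear receptor induced by cAMP, the percentiles were 80.6 to 92.3 and the highest was in White 2.

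Several distal regions with the element lay in or near genes of phosphodiesterases, the enzymes that break down cyclic nucleotides and many of which IBMX inhibits, and they and the genes after them are named after their values were seen. In introns of Pde4d, one region had -log10 q of 146 and 167 in beige, 94.6 and 36.6 in white, and 187 and 132 in brown, and another, whose sequence is shown above, had 38.3 and 36.4, 32.6 and 32.0, and 90.6 and 67.8. An intronic region of Pde4b had 43.2 and 51.6, 40.3 and 25, and 68.6 and 44.7. A second intronic region of Pde4b, 2 of the 3 intronic regions of Pde7b and the regions nearest Pde8b and Pde10a were open in all 6 libraries too. The other 2 regions in Pde4d, both exonic, were open in 2 and 5 libraries, the third of Pde7b in 1, and the region nearest Pde3a in Beige 2, White 1 and Brown 1. Of the 12 distal regions nearest phosphodiesterase genes, 8 were thus open in all 6 libraries, against 38.9% of the distal regions with an element and 25.8% of all. Of the other cAMP targets, Per1, a clock gene, had an intronic region at -1836 bp from its nearest start site, open in all 6 libraries with 69.1 and 84.2, 39.7 and 15.7, and 123 and 113.7. The region nearest Lep, which encodes leptin, was open in 5 libraries and not in Brown 2. That nearest Dio2, in an intron of Cep128, was open in Beige 1, Beige 2 and Brown 2.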

How the data were processed

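Per the labels, nuclei of 2 beige, 2 white and 2 brown cultures were profiled by ATAC-seq. The authors aligned reads to mm10 with BWA and called peaks per library with MACS2 at a q value under 0.05. The deposited lists give a fold enrichment, which is a ratio to the local background within that library, the -log10 p and -log10 q of each summit, and a score derived from them. Values were ranked within a library, except to choose the strongest summit of each region and the regions named per pattern. The lists hold no counts, so precision rests on the number of intervals.

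Lines sharing an interval were collapsed to the interval with its highest summit, and 0 of 709164 intervals ran past a chromosome of GRCm38, whose sequence was read. Start sites were the 41474 of protein-coding transcripts in GENCODE M21 basic. A library was open in a region where an interval overlapped it by 1 bp. Analysis used scipy 1.17.1, pandas 2.3.3, numpy 2.4.6 and matplotlib 3.10.9 under Python 3.11.15, and the search, merging and patterns were tested on simulated data. Members and gene lists were chosen with earlier results of these data known. Named were list and marker genes with a member promoter, the 10 promoter and 10 distal members open in all 6 libraries with the highest lowest percentile, up to 5 of each class per partial pattern by lowest -log10 q, and up to 5 with most elements. The paper states biological replication of the ATAC-seq in each of its groups, which are beige and white. For brown, the labels do not say whether the libraries came from separate mice, so their spread may be technical. For insulin the labels' dose is given, and the brown libraries are not in the paper.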

Additional observations from a re-analysis of the deposited data

How the results depend on the processing

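No paired analysis was possible because no test between conditions was made, and no label ties libraries of different conditions beyond a shared number. The number of regions with an element stayed within 1.5 times of 1276 under every alternative run, and so did the promoter and distal numbers. The share of promoter regions with the element was 1.51% with the window cut to 50 bp and 2.51% with it widened to 250 bp, 2.46% and 1.61% with promoters set at 500 bp and 3 kb, and 2.83% with the window at any summit, an alternative chosen after seeing the data. For distal regions it was 0.325%, 0.682% and, with any summit, 0.607%, and 0.552% at a q value under 1e-05. Of the promoter regions with an element, 85.5% were open in all 6 libraries when a summit within 100 bp was required and 86.7% with promoters set at 3 kb, against 57.4% and 54.7% of all promoter regions. Of the distal ones it was 42.7% at the stricter q value, 35.3% with the required summit and 45.9% with any summit; the background at the stricter q value was 31.4% and with the required summit 23.4%. With a library left out these shares ranged from 89.9% to 91.1% and from 40.6% to 43.3%. The 22 regions open in beige and brown and not in white became 14, and the 57 of 1 or 2 conditions 36, with the window of 50 bp. They ranged from 21 to 55 and from 111 to 146 with a library left out, where a condition of 1 library needs no second interval to be called.

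The share of intervals with the element was 0.947% in beige, 0.868% in white and 1.06% in brown at a q value under 1e-05, 0.610%, 0.483% and 0.633% with 50 bp, and 1.12%, 1.05% and 1.20% with 250 bp. With equally long lists it was 0.897% in beige and 0.921% in brown, and 0.919% in brown at a q value under 0.01. Beige and brown thus lay closer with equally long lists than with the full lists, where they had 0.848% and 0.912%. Values not given here moved by less than the SD of the condition. White stayed lowest and brown highest in each of these. With a library left out it ranged from 0.843% to 0.852% in beige, 0.688% to 0.786% in white and 0.911% to 0.913% in brown. The Sst promoter lost its call when an interval had to cover the element, and the Creb5 promoter was open in 4 libraries when a summit within 100 bp was required. Depth was not matched between libraries, so a region without an interval may have been missed and is not shown to be closed.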

Other observations

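Sequences that differ from the element by 1 base were counted in the same windows. Of the 12 such sequences, counted with their reverse complements, the 3 without a CG were the commonest over both classes together. TGACATCA was found in 1.12% of promoter regions and 2.47% of distal regions, TGACCTCA in 0.961% and 2.41%, and TGAAGTCA in 0.717% and 1.64%. For these the distal share was above the promoter share, whereas the full element had 2.01% and 0.477%. Of the 9 that keep the CG, the promoter share was highest for TGACGCCA (0.784%, against 0.239% of distal regions), CGACGTCA (0.593% and 0.0575%) and GGACGTCA (0.465% and 0.174%). Promoter regions with TGACGCCA were open in all 6 libraries in 89.8% of cases (159 of 177) and those with CGACGTCA in 94.0% (126 of 134), against 90.1% for the full element. For TGACATCA, TGACCTCA and TGAAGTCA the values were 64.3%, 57.6% and 49.4%, against 63.1% of all promoter regions. At distal regions the range over the 12 was 27.0% to 35.3%, against 38.9% for the full element and 25.8% of all. CG content differs between these groups of sequences, and its part was not tested for them.

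Of 16 Trmt genes, which encode tRNA methyltransferases, with an open promoter, 4 had a promoter region with the full element, namely Trmt12, Trmt2a, Trmt5 and Trmt61a, against 3.22% of all 15504 genes with an open promoter. Of 57 clustered histone genes 4 had one. Both groups were singled out after their members were seen.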
